A study of Mus musculus with 14 samples.

Results

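Stra8, Meioc, Ythdc2, Rbm46 and Zglp1 are genes through which mouse germ cells switch from mitotic division to meiosis. The set was chosen by name, as 6 meiotic entry genes with Gm4969 (Meiosin) among them, from tables of 24984 gene symbols. Of these 6, 5 were measured in both tables, and Gm4969 was not analysed here. All 5 passed the filter on low counts in both experiments. The libraries are bulk RNA sequencing of c-KIT-positive spermatogonia, the differentiating germ cells just ahead of meiosis, sorted from testes of C57BL/6J mice. The genotypes test Cbx2, a chromobox subunit of Polycomb repressive complex 1, which holds developmental genes silent.

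Retinoic acid reaching the spermatogonium switches on Stra8. Its protein acts with MEIOSIN as a transcription factor that raises genes of meiotic prophase. A separate arm works on RNA: the helicase YTHDC2 and its partners MEIOC and RBM46 bind transcripts and turn down the mitotic programme, so that prophase can proceed. ZGLP1 is a GATA-like zinc finger protein known, in the mouse fetal ovary, for directing germ cells to the oogenic fate and into meiosis.

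There were 14 libraries in 4 groups. In the deletion experiment, 2 mice of genotype Rosa26-CreERT2; Cbx2 Flox/Δ received 3 intraperitoneal injections of 200 µL tamoxifen at 20 mg/mL in corn oil, and 2 mice of genotype Rosa26-CreERT2; Cbx2 Flox/+ received corn oil by the same schedule. Both of these groups carry the tamoxifen-dependent recombinase, Rosa26 is active in most cell types, and the Δ allele of the deleted group is present before any injection, so genotype and tamoxifen differ together. In the 23KRA experiment, 5 untreated mice homozygous for Cbx2 23KRA, with lysines and arginines of the CaPS domain changed to alanine, stood against 5 untreated Cbx2 +/+ mice. The age of the animals is not given in the sources used here. The titles give each library a replicate number and do not state how many animals it came from. Each library is taken here as 1 animal, and the spread between libraries as that between animals.

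The experiments used different library kits and were scaled and tested apart. Deletion libraries held 28169990 to 31166500 counts and 23KRA libraries 14562564 to 19814511. Levels are CPM, counts per 1000000 of the scaled library size. Cbx2 stood at 93.9 and 97.7 CPM in deletion controls and 78.5 and 86.5 CPM in the deleted libraries (log2 fold change -0.21, SE 0.12). Reads of the gene were thus still present in the latter. The count is for the whole gene, so reads of intact and of recombined alleles cannot be told apart. In the 23KRA experiment wild type had 73.0 ± 12.6 CPM of it and homozygotes 64.1 ± 17.4 CPM (SD over 5 libraries each). Summed over 10 markers, differentiating spermatogonia gave 2111 to 3394 CPM in the 14 libraries, against 90.4 to 142 CPM for 14 markers of undifferentiated cells. The 10 include Stra8 itself and Sycp3 of the prophase list; the 5 on no other list (Dmrtb1, Dnmt3b, Prss50, Tex14 and Rhox13) summed to 862 to 1230 CPM, and Kit, on which the cells were sorted, was at 203 to 303 CPM. The 35 meiotic prophase genes measured summed to 9439 to 10655 CPM in the deletion and 7751 to 10233 CPM in the 23KRA libraries. Which cells of the sort gave these transcripts was not tested. Transcripts of later germ cells were present too, with 12 spermatid markers at 3687 to 4662 CPM in the deletion and 652 to 2035 CPM in the 23KRA libraries. The CPM of each gene is a mean over all cells in the sort, so fewer cells of a type and less RNA per cell cannot be told apart.

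RefSeq start-site sequence (GRCm38.p6) was examined for 4 of the 5 measured genes, and that of Ythdc2 was left out. The sequence is shown because Stra8 is a retinoic acid target and Polycomb binding often falls on promoters dense in CpG. The 250 bases before the start were searched on both strands for a nuclear receptor hexamer (AGGTCA, its variant GGGTCA, the form AGTTCA and the form GGTTCA), a DMRT core (ACAATGT), the E-box CACGTG that MGA with MAX binds, an E2F core (GCGGGAA) and CNCCTCAG, a motif reported for STRA8. Capitals mark the matches, 5′ to 3′ on the gene's strand.
Meioc, chr11:102665335-102665584, E2F core: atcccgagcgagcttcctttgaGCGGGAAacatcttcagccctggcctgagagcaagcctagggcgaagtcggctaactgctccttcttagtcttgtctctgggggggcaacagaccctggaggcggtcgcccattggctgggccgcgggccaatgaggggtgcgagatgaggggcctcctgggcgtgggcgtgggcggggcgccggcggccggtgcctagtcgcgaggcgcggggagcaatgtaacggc
Rbm46, chr3:82876484-82876733, hexamer, E-box and reverse of the STRA8 motif in that order: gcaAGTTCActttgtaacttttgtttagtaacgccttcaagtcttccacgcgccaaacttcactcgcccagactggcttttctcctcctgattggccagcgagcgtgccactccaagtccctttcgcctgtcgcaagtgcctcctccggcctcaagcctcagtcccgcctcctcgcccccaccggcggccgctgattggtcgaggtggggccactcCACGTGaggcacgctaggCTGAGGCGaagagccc
Stra8, chr6:34920742-34920771, hexamer 194 bases before the start: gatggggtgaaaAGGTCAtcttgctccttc
Stra8, chr6:34920791-34920820, DMRT core 145 bases before: tggcaagttgttACAATGTtttcaccaatg
Stra8, chr6:34920898-34920927, hexamer 38 bases before: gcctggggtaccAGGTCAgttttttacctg
Zglp1, chr9:21067201-21067230, E-box 125 bases before: aaacagcgccccCACGTGacctgcgccgcc

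The Stra8 and Zglp1 stretches are short because GENCODE places all 250 bases of those windows in untranslated exon sequence. That sequence belongs to a longer Stra8 transcript and to Gm49373. The Meioc window holds no exonic bases but lies inside the GENCODE gene, which starts at 102663716. Of the Rbm46 window, 29 bases lie in exons of Rbm46os. In Zglp1 the E-box overlaps a reverse-strand hexamer. Of 32851 windows of this length, 38.6% hold a hexamer, 2.56% the DMRT core, 6.02% the E-box, 3.82% the E2F core and 6.42% the STRA8 motif. CpG dinucleotides numbered 22 in the Meioc, 18 in the Rbm46, 13 in the Zglp1 and 5 in the Stra8 window, against a median of 6 over all windows. The ratio of observed to expected CpG was 0.797, 0.802, 0.502 and 0.267 in the same order, with a median of 0.373. Thus 3 of the 4 start regions were richer in CpG than the median window and that of Stra8 was poorer. Only those of Meioc and Rbm46 lay above the upper quartile of all windows (16 CpG, ratio 0.723). Those of Zglp1 and Stra8 lay between it and the lower quartile (2 CpG, ratio 0.167). A match is a description of letters and not a bound site.

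Stra8 lies on chromosome 6 at 34920163 to 34939344 (plus strand), Meioc on chromosome 11 at 102663716 to 102682237 (plus), Ythdc2 on chromosome 18 at 44827746 to 44889724 (plus), Rbm46 on chromosome 3 at 82837228 to 82876483 (minus) and Zglp1 on chromosome 9 at 21062393 to 21067093 (minus), all protein-coding genes of GENCODE on GRCm38. No other gene of that annotation overlaps the first 4. Zglp1 shares 92.2% of its exonic bases with Gm49373, a longer protein-coding gene on the same strand, so the Zglp1 counts are uncertain in this respect, and Gm49373 was not analysed here.

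Before the comparisons, the levels themselves differed widely between the genes. Divided by exonic length, Stra8 was at 297 ± 22.9 CPM per kb in deletion controls (SD, n = 2) and 402 ± 36.0 CPM per kb in wild type (SD, n = 5), above 99.6% of tested genes in each experiment. Meioc followed, at 115 ± 13.0 and 98.2 ± 11.4 CPM per kb, and then Rbm46, at 113 ± 4.09 and 66.1 ± 2.25 CPM per kb. The ranges of Meioc and Rbm46 overlapped in deletion controls and did not overlap in wild type. Ythdc2, with the longest exonic sequence of the 5 (8.878 kb), was at 16.6 ± 0.862 and 21.8 ± 2.16 CPM per kb. Zglp1 was at 35.2 ± 1.96 CPM per kb in deletion controls, above Ythdc2, and at 14.8 ± 5.58 CPM per kb in wild type, where its range of 8.02 to 22.4 overlapped that of Ythdc2. Even the lowest of these means stood above 73.8% of tested genes. Kits, scaling and the sorts differ between the experiments, so levels across them are side by side and not compared.

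**Figure D1:**
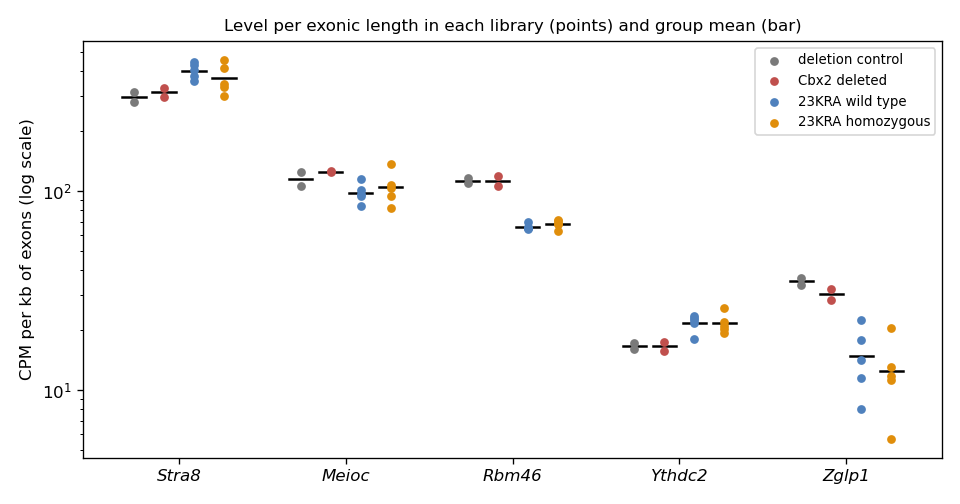
Level of each gene per kb of exons (CPM per kb, log axis) in all 14 libraries (points), with the group mean as a bar, for deletion control, Cbx2 deleted, 23KRA wild type and 23KRA homozygous. Stra8 is the highest gene in every library, with 281 as its lowest value, and Ythdc2 and Zglp1 are the lowest.

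The first comparison asked whether meiotic entry genes changed in animals with tamoxifen-induced Cbx2 deletion. None of the 5 passed edgeR's quasi-likelihood test, adjusted by Benjamini-Hochberg over 16725 genes, of which 2 (0.012%) were called. None had an unadjusted p under 0.05, where 4.74% of all genes did, and DESeq2 and limma-voom called none and had none at an unadjusted p under 0.05.

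In replicates 1 and 2, Stra8 read 566 and 507 CPM for the controls, and 596 and 532 CPM after deletion. The groups overlapped, with replicate 1 the higher in each. Its log2 fold change was 0.073 (SE 0.11; edgeR adjusted p = 0.974), and the 95% interval ran from a fold of 0.903 to 1.23. Leaving out control replicate 2 or deleted replicate 1 put the log2 fold change below 0, at -0.0033 and -0.0074.

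Meioc, which encodes the germ cell partner of YTHDC2, had control values of 575 and 490 CPM and deleted values of 574 and 580 CPM. Control replicate 2 was the low library, and the other control, at 575 CPM, lay between the deleted libraries. For Meioc the log2 fold change came to 0.12 (SE 0.11; edgeR adjusted p = 0.971; interval 0.930 to 1.26 fold), and without control replicate 2 it was 0.0049.

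Ythdc2, the RNA helicase with a YTH domain that binds N6-methyladenosine, had control values of 153 and 142 CPM and deleted values of 139 and 155 CPM. The deleted pair lay on either side of the controls. This gave a log2 fold change of -0.0036 (SE 0.11), with an interval of 0.852 to 1.17 fold.

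Rbm46, the RNA-binding partner, had control values of 289 and 274 CPM and deleted values of 296 and 264 CPM. Here too the deleted pair spanned the control pair. A log2 fold change of -0.0061 (SE 0.11) resulted, with an interval of 0.855 to 1.16 fold.

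Zglp1 was the gene of the 5 whose groups did not overlap, a pattern that 33.1% of all tested genes showed with 2 against 2 libraries. Controls had 36.8 and 39.9 CPM of it and deleted libraries 35.0 and 30.9 CPM, 85.9% of the control mean. Zglp1's log2 fold change, -0.22 (SE 0.13; edgeR adjusted p = 0.971), had an interval of 0.710 to 1.04 fold. All 12 spermatid markers also had a log2 fold change below 0 (median -0.21, none passed). Their sum was 4323 to 4662 CPM in controls and 3687 to 4260 CPM in deleted libraries. Below 0 too were 8 of 10 pachytene spermatocyte (median -0.0999), 6 of 7 Leydig cell (median -0.37) and 5 of 7 peritubular myoid markers. Fewer were below 0 among Sertoli cell (3 of 10), macrophage and leukocyte (2 of 13) and endothelial markers (2 of 6). Among spermatogonial markers, 3 of 10 for differentiating and 7 of 13 for undifferentiated cells were below 0. An unadjusted p under 0.05 by edgeR was found for 4 spermatid, 1 pachytene spermatocyte, 3 Leydig cell and 3 macrophage and leukocyte markers. It was also found for 2 differentiating and 1 undifferentiated spermatogonial markers. The part of any of these cells in the Zglp1 value was not tested.

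**Figure D2:**
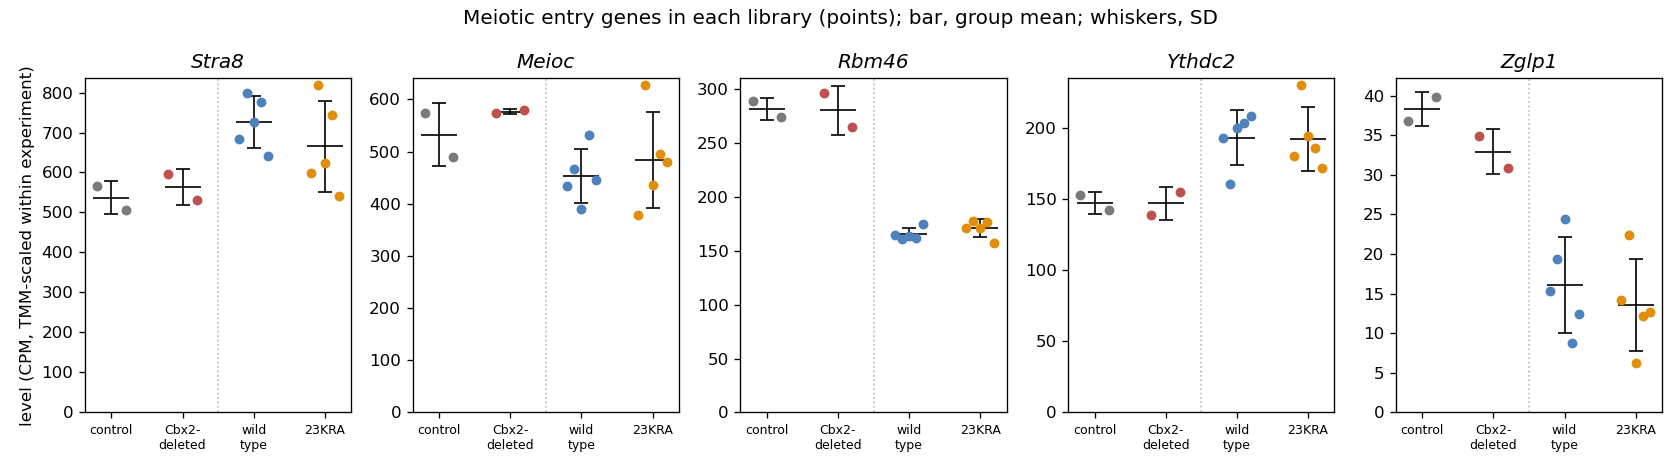
CPM of the 5 genes, 1 panel each, in each library (points) of the 4 groups, with group mean (bar) and SD (whiskers); the dotted line separates the experiments, which were scaled apart. Mutant and control libraries overlap in every panel and experiment except Zglp1 in the deletion, where 35.0 and 30.9 CPM lie below 36.8 and 39.9 CPM.

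The second comparison set 23KRA homozygotes against wild type. Again none of the 5 passed edgeR's quasi-likelihood test, as none of 14208 genes did (0%), and none had an unadjusted p under 0.05, where 3.04% of all genes did. DESeq2 and limma-voom called none of the 5 and gave none of them an unadjusted p under 0.05. The groups overlapped for every gene of the 5, while they did not for 0.711% of all tested genes.

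Stra8 was at 684, 799, 727, 777 and 642 CPM in wild-type replicates 1 to 5 and at 598, 819, 624, 745 and 541 CPM in homozygous replicates 1 to 5. Of the homozygotes, 3 lay below the lowest wild-type library and 1, replicate 2, above the highest. The mean was 726 ± 64.9 against 666 ± 113 CPM (SD, n = 5 each), and the log2 fold change -0.12 (SE 0.096; edgeR adjusted p = 1.00; interval 0.799 to 1.05 fold). It stayed below 0 with any library left out, between -0.21 and -0.058, and the value of -0.21, without homozygous replicate 2, had an unadjusted p = 0.0244 by edgeR (adjusted p = 1.00). With replicate number as a block it was -0.14, with an unadjusted p = 0.0105 by edgeR (adjusted p = 0.579). The labels do not say that these numbers pair animals.

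Wild-type libraries had 435, 466, 389, 532 and 445 CPM of Meioc, and homozygous libraries 379, 628, 435, 496 and 480 CPM, with both the lowest and the highest library among the latter. Meioc's log2 fold change was 0.093 (SE 0.11; interval 0.915 to 1.24 fold), and -0.018 without homozygous replicate 2, the library at 628 CPM.

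For Ythdc2 wild type gave 194, 161, 201, 204 and 209 CPM and the homozygotes 180, 230, 194, 186 and 172 CPM. Wild-type replicate 2 was the lowest of the 10 and homozygous replicate 2 the highest. The means of 193 ± 19.2 and 193 ± 22.6 CPM (SD, n = 5 each) gave a log2 fold change of -0.0059 (SE 0.094), with an interval of 0.870 to 1.14 fold.

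Rbm46 varied least: wild type had 165, 161, 163, 162 and 175 CPM, homozygotes 171, 178, 171, 177 and 157 CPM. Homozygous replicate 5 was the lowest of all and wild-type replicate 5 the highest of its group. The coefficient of variation was 3.41% and 4.78%, against counting errors of 1.69% to 2.07% per library, and the log2 fold change was 0.048 (SE 0.077; interval 0.925 to 1.16 fold).

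Zglp1 varied most, with 15.4, 19.4, 24.4, 8.72 and 12.5 CPM for wild type and 14.2, 22.4, 6.20, 12.2 and 12.7 CPM for homozygotes. Its coefficient of variation was 37.8% and 43.0%, while counting error was 5.14% to 10.5% per library. Its log2 fold change of -0.25 (SE 0.31) had an interval of 0.541 to 1.32 fold, which takes in the whole interval of the deletion. Without wild-type replicates 2 and 3, the pair with the fewest genes detected, it was 0.15. The 12 spermatid markers were again all below 0 (median -0.27, none passed), with a sum of 736 to 2016 CPM in wild type and 652 to 2035 CPM in homozygotes. So were 8 of 10 pachytene spermatocyte, 7 of 7 macrophage and leukocyte, 4 of 5 endothelial and 3 of 5 peritubular myoid markers. Spermatogonial markers were also mostly below 0, with 7 of 10 for differentiating and 6 of 8 for undifferentiated cells. Sertoli cell markers had 3 of 9 below 0 and Leydig cell markers 0 of 2. Of all these markers, 1, of the macrophage and leukocyte list, had an unadjusted p under 0.05 by edgeR. The part of any of these cells in the Zglp1 value was not tested.

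**Figure D3:**
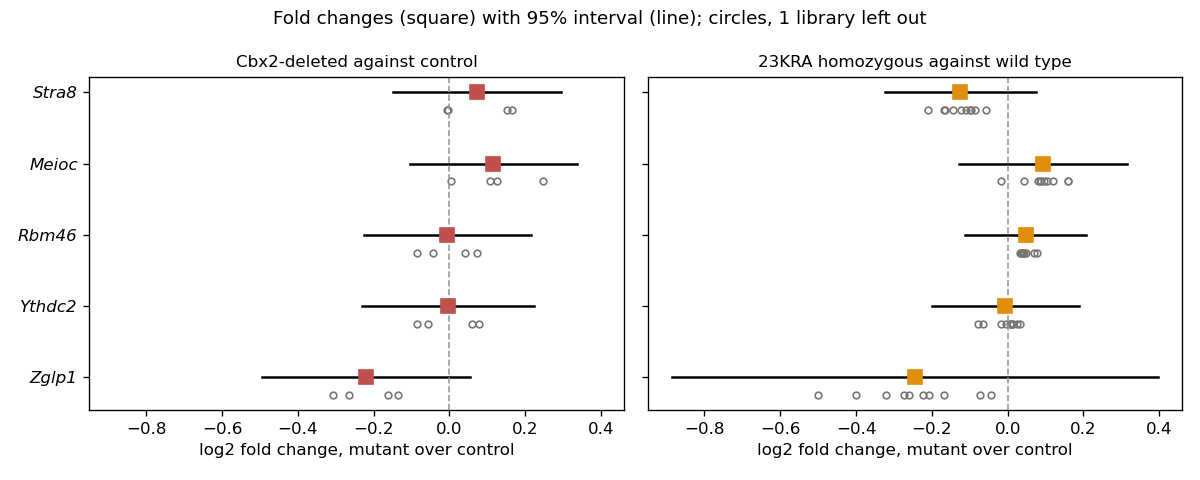
Log2 fold change of each gene, mutant over control (square), with its 95% interval (line) in the deletion (left) and 23KRA (right) experiments, and the values with 1 library left out (circles). Every interval includes 0, and the widest is that of Zglp1 in 23KRA, from -0.89 to 0.40.

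Because partners of a complex may change relative to each other without either passing, the ratio of their CPM was taken within each library, which no library scaling alters beyond the added 0.5 CPM. Meioc over Ythdc2 had a log2 ratio of 1.84 ± 0.089 in deletion controls and 1.97 ± 0.10 in deleted libraries (SD, n = 2), and 1.22 ± 0.23 in wild type and 1.31 ± 0.18 in homozygotes (SD, n = 5). The ranges overlapped in both experiments (exact two-sided permutation p = 0.667 in the deletion, where the smallest possible is 0.333, and 0.532 in 23KRA, where it is 0.00794). Rbm46 over Ythdc2 was at 0.93 ± 0.022 and 0.93 ± 0.23 in the deletion and at -0.22 ± 0.13 and -0.17 ± 0.12 in 23KRA. The differences, -0.0031 in the deletion and 0.054 in 23KRA, were smaller in size than the SD of either group. The exact two-sided permutation p was 1.00 and 0.508, and in the deletion none under 0.333 was possible. Adjusted over both ratios, p was 1.00 for each in the deletion and 0.532 for each in 23KRA.

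The 10 libraries of the 23KRA experiment also show how the 5 genes varied together once each group's mean was removed. Of 10 pairs of genes, the closest was Stra8 with Meioc, with Pearson's r = 0.65 (permutation p = 0.0848, adjusted over 10 pairs 0.424) and Spearman's rho = 0.61 (permutation p = 0.114, adjusted 0.571). Without the 2 libraries farthest from the median of Stra8, homozygous replicates 2 and 5, r was 0.62. Next came Ythdc2 with Rbm46, with r = 0.62 (permutation p = 0.0479, adjusted 0.424), rho = 0.58 (permutation p = 0.0772, adjusted 0.571) and r = 0.58 without the 2 farthest libraries. Stra8 with Ythdc2 had r = 0.33 (permutation p = 0.409, adjusted 0.689) and rho = 0.22 (permutation p = 0.574, adjusted 1.00), and r turned to -0.42 without homozygous replicates 2 and 5, so that the pooled value rested on them. No pair passed the adjustment, and the lowest r of the other 7 pairs was 0.045 and the highest 0.43. Without the 2 libraries farthest on the first-named gene, r also turned negative for Stra8 with Rbm46 (-0.37) and Ythdc2 with Zglp1 (-0.28). The same held for Meioc with Ythdc2 (-0.12), with Rbm46 (-0.087) and with Zglp1 (-0.37). It stayed above 0 for Stra8 with Zglp1 (0.12) and Rbm46 with Zglp1 (0.28). Homozygous replicate 2 was above its group mean in all 5 genes, by 0.32 for Stra8, 0.40 for Meioc, 0.27 for Ythdc2, 0.059 for Rbm46 and 0.81 for Zglp1 on the log2 scale.

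**Figure D4:**
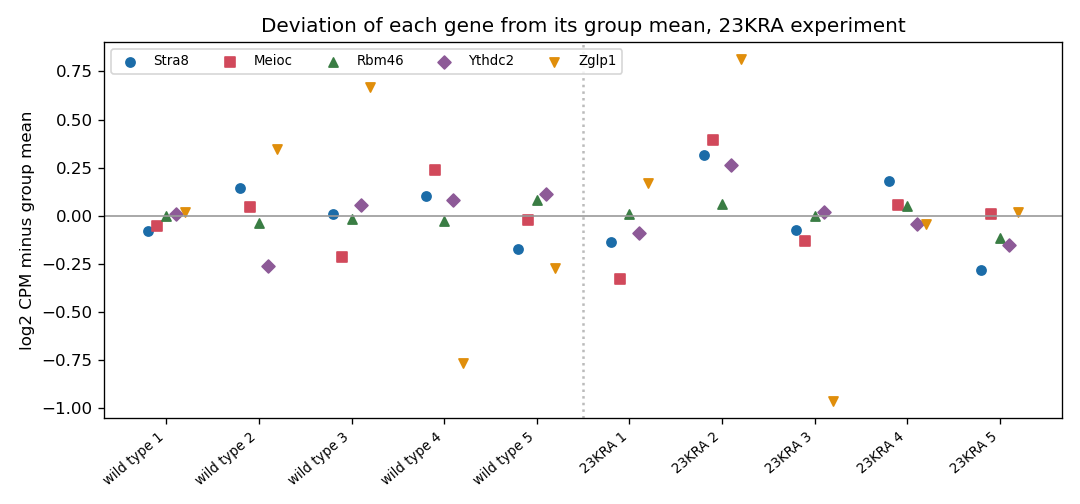
Log2 CPM of each gene minus its group mean (y axis) in each of the 10 libraries of the 23KRA experiment (x axis), 1 symbol per gene. Homozygous replicate 2 lies above 0 for all 5 genes, Rbm46 stays between -0.12 and 0.083, and Zglp1 runs from -0.96 to 0.81.

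Among 8937 other genes of at least 10 CPM, those whose deviations were most like Stra8's over these 10 libraries were Paip2 (Pearson's r = 0.96), Rxylt1 (0.94), Psmd1 (0.93), Hnrnph1 (0.93) and Eif2s2 (0.93). For Meioc they were Ccdc172 (0.97) and Bex2 (0.96), for Ythdc2 Rpf1 (0.97) and Rab11fip2 (0.95), for Rbm46 Nexn (0.90) and Dnajc4 (0.87), and for Zglp1 Pex26 (0.94) and Zfyve28 (0.91). These are the extremes of many genes over few libraries: 28.7% of the genes ranked had an r beyond 0.5 in either direction with Stra8, and 8.18% with Rbm46.

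Other genes of the meiotic entry pathway were read from the same fits, and none of them passed by itself in either experiment. Medians are to be read against -0.0044 over all tested genes in the deletion and 0.0034 in 23KRA, with 49.0% and 50.8% of genes above 0. Counts under an unadjusted p of 0.05 are to be read against 4.74% and 3.04% of all tested genes. Of 35 meiotic prophase genes, the programme that STRA8 raises, 26 were above 0 in the deletion (median 0.074; 1 had an unadjusted p under 0.05) and 22 in 23KRA (median 0.038; 2 unadjusted). Sycp1, of the synaptonemal complex, was at 1291 ± 18.2 against 1358 ± 75.6 CPM in the deletion (SD, n = 2) and at 1164 ± 100.2 against 1183 ± 160.5 CPM in 23KRA (SD, n = 5). Sycp3, of the same structure, was at 1048 ± 48.8 against 1193 ± 159 CPM in the deletion. Smc1b, a meiotic cohesin subunit, was at 818 against 893 CPM and at 1507 against 1533 CPM in the 2 experiments. Stag3, another, was at 760 ± 38.4 against 693 ± 36.3 CPM in 23KRA (log2 fold change -0.13, SE 0.064). Tex11, a crossover factor, was at 740 against 855 CPM in the deletion, and Tex15 at 1386 against 1522 CPM in 23KRA.

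Upstream, 18 genes of retinoic acid handling and reception were tested in the deletion, 10 above 0 (median 0.022), and 15 in 23KRA, 7 above 0 (median -0.0030); none had an unadjusted p under 0.05 by edgeR. Crabp1, which binds retinoic acid in the cytoplasm, was at 212 against 220 CPM in the deletion and 121 against 118 CPM in 23KRA. Aldh1a2, an enzyme of retinoic acid synthesis, was at 85.5 against 87.0 CPM and 60.7 against 60.6 CPM. The receptor genes Rxra and Rxrb were at 39.7 against 37.5 and 68.5 against 69.5 CPM in the deletion, and at 52.6 against 49.0 and 34.4 against 41.2 CPM in 23KRA. Other regulators upstream of entry had 10 of 14 above 0 in the deletion (median 0.029; 0 unadjusted) and 7 of 12 in 23KRA (median 0.027; 1 unadjusted). Dazl, a germ cell RNA-binding protein that licenses meiosis, was at 3126 ± 306 against 3468 ± 181 CPM in the deletion, and Mga, of the Polycomb complex that keeps meiotic genes off, at 775 ± 52.5 against 793 ± 63.6 CPM in 23KRA. Taf7l, a germ cell subunit of the general transcription machinery, was at 863 against 876 CPM and 835 against 814 CPM.

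On the RNA side, writers, readers and erasers of N6-methyladenosine, the mark that YTHDC2 binds, had 11 of 17 above 0 in the deletion (median 0.011; 0 unadjusted) and 9 of 17 in 23KRA (median 0.015; 0 unadjusted). Alkbh5, an eraser, was at 306 against 301 CPM and Ythdf1, a reader, at 236 against 241 CPM in the deletion. Zc3h13, of the writer complex, was at 560 against 536 CPM and the reader Ythdc1 at 460 against 449 CPM in 23KRA. RNA decay genes had 6 of 12 above 0 in each experiment (medians 0.034 and 0.0035; 0 and 2 unadjusted). Cnot1, the scaffold of the deadenylase, was at 305 against 346 CPM in the deletion and 711 against 703 CPM in 23KRA, and Cnot10 at 251 against 264 CPM and 204 against 198 CPM.

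Mitotic cyclins, among them Ccna2, which the MEIOC and YTHDC2 complex turns down in mouse germ cells, had 6 of 9 above 0 in the deletion (median 0.022; 2 unadjusted) and 4 of 9 in 23KRA (median -0.016; 0 unadjusted). Ccna2 was at 256 ± 12.0 against 260 ± 5.56 CPM in the deletion. Ccnb1 was at 223 ± 24.7 against 269 ± 31.3 CPM in the deletion (log2 fold change 0.27, SE 0.11; edgeR adjusted p = 0.971) and 146 against 144 CPM in 23KRA, where Ccne2 was at 230 against 235 CPM.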

How the data were processed

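The authors deposited raw counts of reads per gene with no normalization, in 2 tables, and the submitters' processing notes name STAR 2.5.3, Trim Galore 0.4.3, featureCounts, Subread 1.5.0 and SAMtools 1.4.1 with mm10. The annotation is not given in the sources used here, nor are the strand setting and the treatment of multi-mapping reads. Columns were matched to libraries by name. The deletion used an mRNA kit and 23KRA a stranded total RNA kit, per the labels' protocols.

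Each table was fitted alone in R 4.3.3 with edgeR 4.0.16 (filterByExpr, TMM, two-sided quasi-likelihood F test, Benjamini-Hochberg over all genes at 0.05). The standard error is the log2 fold change over the root of F. Ratios and relations used SciPy 1.17.1 and log2(CPM + 0.5). Alternatives were DESeq2 1.42.0 and its size factors, upper quartile scaling, no filter, limma-voom (limma 3.58.1), a replicate block, omitting each library, and, in 23KRA, omitting the 2 libraries with the fewest genes. Exonic length is the union of GENCODE exons.

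The genes, lists and promoter motifs were chosen with earlier results of these data known. Each list of the entry pathway is represented by members that passed, else by its 2 (prophase and retinoic acid: 4) of highest CPM in that experiment. For the lists of other testis cells, sums and counts are given and only Cyp17a1, which passed, is named. A planned ratio of Stra8 to Gm4969 was not made. Marker lists of other cells are reported in the closing section. Counting errors cover sampling only.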

Additional observations from a re-analysis of the deposited data

Results flagged for a closer look

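Of 14 sets of 5 values checked for a library apart from the rest, 1 was marked, and chance marks about 1 in 20. Rbm46 in wild-type replicate 5, at 175 CPM, stood away from the other 4 wild-type libraries: the gap to the nearest was 0.725 of the group's range, where the limit is 0.71. Without that library the log2 fold change of Rbm46 in 23KRA was 0.070, against 0.048 with it, and edgeR's adjusted p was 1.00 in both.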

How the results depend on the processing

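None of the 5 genes was called under any alternative run, in either experiment. With replicate number as a block, Zglp1 in the deletion (log2 fold change -0.22) had an edgeR adjusted p = 0.459 and an unadjusted one of 0.0445, and Stra8 in 23KRA (log2 fold change -0.14) an edgeR adjusted p = 0.579 and an unadjusted one of 0.0105. Without homozygous replicate 2, Stra8 in 23KRA had an edgeR adjusted p = 1.00 and an unadjusted one of 0.0244. No other alternative brought a gene of the 5 under 0.05 unadjusted. In the block runs, 1755 of all 16725 genes were under 0.05 unadjusted in the deletion and 911 of 14208 in 23KRA. Without homozygous replicate 2 it was 372 of 14556 genes. The log2 fold change kept its sign in 117 of 135 alternative values. It changed sign with DESeq2 size factors, to 0.0035 for Ythdc2 and 0.0016 for Rbm46 in the deletion, and with DESeq2, to 0.0024 and 0.00045. In 23KRA it went from -0.25 to 0.15 for Zglp1 without wild-type replicates 2 and 3. The other changes of sign came with 1 library left out. In the deletion this leaves 1 library against 2, so the spread comes from the group of 2 and the lone library is assumed to vary like it. With 1 library left out, deletion values ran from -0.0074 to 0.16 for Stra8, 0.0049 to 0.25 for Meioc, -0.086 to 0.077 for Ythdc2, -0.086 to 0.072 for Rbm46 and -0.31 to -0.13 for Zglp1. In 23KRA they ran from -0.21 to -0.058 for Stra8, -0.018 to 0.16 for Meioc, -0.078 to 0.033 for Ythdc2, 0.033 to 0.077 for Rbm46 and -0.50 to -0.045 for Zglp1. The deletion difference in Rbm46 over Ythdc2, -0.0031 with all libraries, ran from -0.16 to 0.16. The count of all genes called in the deletion, 2, was 8 with no filter, 1 with DESeq2, 1 with limma-voom, and 2 to 73 with 1 library left out (11 without control replicate 1, 73 without deleted replicate 2). With replicate number as a block, 62 genes were called in the deletion and 2 in 23KRA, and the causes of these differences were not tested. The labels do not say that numbers pair animals: the correlation of same-numbered libraries was 0.41 in the deletion and -0.043 to 0.43 in 23KRA, where homozygous replicate 3 was closest to wild-type replicate 2 while the other 4 were closest to the wild-type library of their own number. This is a hint of shared numbers from the data, and a pairing was not assumed because replicate 3 went against it and the deletion has 2 pairs only. Among the 5 genes, Zglp1 in 23KRA had the fewest reads, with 90 to 379 counts per library. Its counting error of 5.14% to 10.5% was still below its coefficient of variation of 37.8% and 43.0%.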

Other observations

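Markers of other testis cells were summed in each library to show what else the sort held, and they are given as values. Pachytene spermatocyte markers (10 genes) summed to 1415 to 1484 CPM in deletion controls and 1267 to 1379 CPM in deleted libraries, and to 278 to 548 CPM in wild type and 248 to 565 CPM in homozygotes. Sertoli cell markers (11 genes) lay at 159 CPM in both deletion controls, 153 to 166 CPM in deleted libraries, 51.5 to 102 CPM in wild type and 55.2 to 85.7 CPM in homozygotes. Leydig cell markers (7 genes) lay at 17.9 to 22.8 and 12.8 to 14.4 CPM in the deletion, where Cyp17a1, the steroid 17-alpha-hydroxylase gene, fell from 6.07 ± 1.84 to 1.66 ± 0.281 CPM (SD, n = 2; edgeR adjusted p = 0.00315), and at 13.4 to 20.3 and 11.4 to 17.5 CPM in 23KRA. Peritubular myoid markers (7 genes) lay at 72.3 to 73.2 and 64.9 to 74.0 CPM in the deletion and at 63.6 to 102 and 64.4 to 89.2 CPM in 23KRA. Endothelial markers (7 genes) lay at 33.6 to 34.3 and 32.6 to 37.7 CPM, and at 12.7 to 21.0 and 9.59 to 20.4 CPM. Macrophage and leukocyte markers (13 genes) lay at 65.2 to 82.0 and 63.9 to 138 CPM in the deletion, and at 12.9 to 195 CPM in wild type and 19.4 to 52.0 CPM in homozygotes. No marker other than Cyp17a1 on these lists passed edgeR's test in either experiment.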
